A study of Mus musculus with 23 samples.

Results

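H19 and Igf2 are 2 neighbouring imprinted genes, described here in the livers of 23 weanling C57Bl/6J mice. They were taken by symbol and are 2 of the 49585 genes in the deposited table, and both were among the 14466 genes with enough counts to be tested. The mice differ in when they met maternal metabolic syndrome (MetS). To set it up, the mothers were raised on feed with 45% fat, and control mothers on feed with 10% fat, starting at 3 weeks old and lasting 7 weeks in one cohort and 17 weeks in the other; the sires ate control feed. At birth each litter was cut to 5 pups and given to another dam, so that exposure in the womb and exposure during nursing could be separated. MetS-MetS pups (n = 5) were exposed at both times, Ct-MetS pups (n = 6) while nursing, MetS-Ct pups (n = 6) before birth, and Ct-Ct pups (n = 6) at neither time. All were labelled postnatal day 21, apart from MetS-Ct_97 at day 22. Each library is 1 animal. The labels do not tie animals to a sex, a litter or a maternal cohort, and p-values would be too small if siblings are among them.

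The H19 gene makes a long noncoding RNA from the maternal chromosome, and Igf2 makes insulin-like growth factor 2, a fetal growth factor, from the paternal one. A control region upstream of H19 binds the insulator protein CTCF on the maternal copy only, where it keeps enhancers shared by both genes from reaching Igf2; on the paternal copy DNA methylation blocks CTCF, and H19 is silent. Both genes are abundant in fetal mouse liver and are shut down in the first weeks after birth, so that liver at weaning shows the end of that decline.

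In the GENCODE M21 annotation of the GRCm38 build, H19 (ENSMUSG00000000031, a long intergenic noncoding RNA) lies at chr7:142575529-142578143 and Igf2 (ENSMUSG00000048583, protein coding) at chr7:142650766-142666816. Both lie on the minus strand, with 72622 bases between them. Each gene also carries a microRNA. The microRNAs are shown because they are the best known small products of the pair and because the polyadenylated libraries gave neither a single count. The Mir675 hairpin (chr7:142577064-142577147, minus strand) is inside an exon of 3 of the 7 annotated H19 transcripts, and the Mir483 hairpin (chr7:142654924-142654996, minus strand) is inside Igf2 but in no exon of its 9 transcripts. The sequences below are from RefSeq (GRCm38.p6), 5′ to 3′. In the hairpins the capitals mark both mature microRNAs, and in the mature forms they mark the seed, bases 2 to 8, with which a microRNA finds its targets.
Mir675 hairpin: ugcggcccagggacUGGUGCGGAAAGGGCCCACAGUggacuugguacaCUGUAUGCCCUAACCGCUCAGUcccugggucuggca
mmu-miR-675-5p: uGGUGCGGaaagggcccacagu
mmu-miR-675-3p: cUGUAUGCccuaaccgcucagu
Mir483 hairpin: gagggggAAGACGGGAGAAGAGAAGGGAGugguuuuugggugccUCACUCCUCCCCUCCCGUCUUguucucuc
mmu-miR-483-5p: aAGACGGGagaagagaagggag
mmu-miR-483-3p: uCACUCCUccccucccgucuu
The 4 seeds differ from one another, and none of them occurs in any other of the 1679 mature mouse microRNAs of the RefSeq table.

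Plagl1 (also called Zac1), a zinc finger protein that is itself imprinted, is known in mouse to activate both genes. The 4 Igf2 promoter windows of the RefSeq table (GRCm38.p6, 250 bases before to 50 after a transcript start) were searched on both strands for the core of its motif, GGGGCCCC. It was in 0 of the 4 windows, and 1.08% of 32851 promoter windows of mouse genes hold it. TATAAA was likewise in 0 of 4, against 13.6% of all windows. The GC box GGGCGG, a known Sp1 site, was in 2 of the 4, against 35.7% of all windows. The window with the most matches, chr7:142657447-142657746 on the minus strand, is shown with its 2 GC boxes in capitals and is 63.3% G and C.
Igf2 promoter window: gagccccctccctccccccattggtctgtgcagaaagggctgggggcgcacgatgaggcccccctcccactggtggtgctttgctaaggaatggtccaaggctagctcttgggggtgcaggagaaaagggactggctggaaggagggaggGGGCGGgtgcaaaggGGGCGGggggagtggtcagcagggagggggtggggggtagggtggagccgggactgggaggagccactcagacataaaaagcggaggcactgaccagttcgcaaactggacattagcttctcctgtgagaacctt
The match is a description of the sequence, and the counts do not say which promoter was in use.

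Library totals ranged from 16876460 to 34527932 counts. H19 had between 1545 and 139568 counts in a library and Igf2 between 51 and 1626, so that both were counted in every liver and Igf2 carried the larger counting error. The 8 hepatocyte markers summed to between 109000 and 152000 CPM (counts scaled to a common library size, with TMM factors) in every library.

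Before the groups are compared, 3 libraries and 1 split of the libraries need to be known. MetS-MetS_110 held skeletal muscle RNA: the 9 muscle markers summed to 1020 CPM there, against 0.542 to 7.37 CPM in the other 22 libraries, and all 9 were highest in it. Acta1, the skeletal muscle actin, was at 358 CPM there and at most 2.3 CPM elsewhere. The same library had the highest adipose sum, 12.4 CPM, with the fat cell genes Adipoq, Plin1, Cfd and Retn all highest in it. Igf2 is a gene of growing muscle too, and MetS-MetS_110 had the highest Igf2 level of its group; the part of muscle or adipose RNA in that level was not tested. Ct-MetS_169 had the highest H19 and the highest Igf2 of all 23 livers, and Ct-Ct_130 was the highest for both within its group.

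The split concerns the strand. Some annotated genes lie on the opposite strand, wholly inside exons of a highly counted gene. For 15 such pairs, H19 not among them, the opposite-strand rows held 0.747% to 1.22% of the count of the gene around them in 12 libraries and 0.101% to 0.384% in the other 11. In 12 of the 15 pairs taken singly, the 12 libraries did not overlap the 11. The same split showed inside H19 itself, where the opposite-strand rows Gm27483 and Gm27786 held 0.819% to 1.23% of the H19 count in the 12 libraries and 0.148% to 0.412% in the 11. No label gives this split. The 12 libraries with the higher share were 4 of Ct-MetS, 3 of MetS-Ct and 5 of Ct-Ct, and the 11 with the lower share were all 5 of MetS-MetS, 2 of Ct-MetS, 3 of MetS-Ct and 1 of Ct-Ct. MetS-MetS therefore has no library of the higher share, and in MetS-MetS the exposure and the lower share cannot be told apart. This split was found after the data were seen, and values with the set taken into account are given beside the results.

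H19 varied more between livers than nearly all other genes. Its levels in MetS-MetS were 245.9, 287.2, 299.2, 286.8 and 726.1 CPM. In Ct-MetS they ran from 377.6 through a median of 645 to 4551 CPM, in MetS-Ct from 157.5 through 408.2 to 853.3 CPM, and in Ct-Ct from 59.19 through 156 to 780.1 CPM. The lowest Ct-MetS liver stood above 5 of the 6 Ct-Ct livers, and Ct-Ct_130 alone reached into the Ct-MetS range. The ranges of all 4 groups overlapped. Means were 369.1 ± 200.6 CPM in MetS-MetS, 1380 ± 1599 CPM in Ct-MetS, 453.3 ± 274.4 CPM in MetS-Ct and 271.9 ± 265.5 CPM in Ct-Ct (SD, n = 5, 6, 6 and 6). The Ct-MetS mean rests largely on Ct-MetS_169, without which it was 746.2 ± 422.4 CPM (n = 5).

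Igf2 was low in every liver. It stood at 2.285, 3.889, 15.53, 3.575 and 6.67 CPM in MetS-MetS, the 15.53 CPM being MetS-MetS_110. It ran from 7.46 through a median of 8.263 to 53.02 CPM in Ct-MetS, from 3.028 through 6.262 to 11.34 CPM in MetS-Ct, and from 3.486 through 5.111 to 26.57 CPM in Ct-Ct. The 5 Ct-MetS livers other than Ct-MetS_169 lay in a narrow band, 8.734 ± 1.815 CPM. All 6 Ct-MetS livers exceeded 5 of the 6 Ct-Ct livers, and Ct-Ct_130 was the exception. Means were 6.389 ± 5.353 CPM in MetS-MetS, 16.12 ± 18.15 CPM in Ct-MetS, 6.375 ± 2.875 CPM in MetS-Ct and 8.587 ± 8.872 CPM in Ct-Ct, and without MetS-MetS_110 the MetS-MetS mean was 4.105 ± 1.846 CPM (n = 4).

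**Figure D1:**
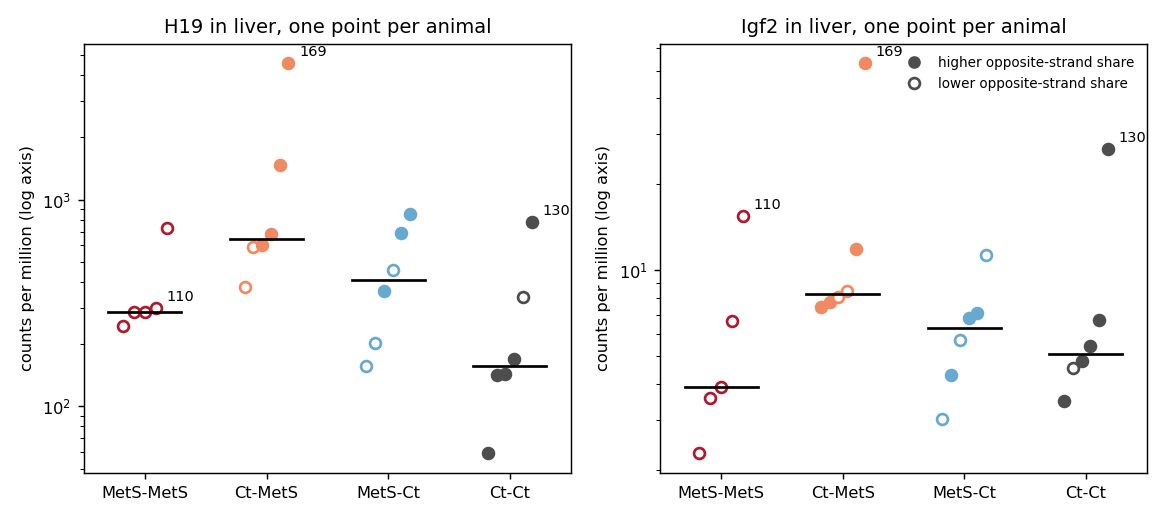
H19 (left) and Igf2 (right) in CPM on a log axis, 1 point per liver, with the group median as a bar; filled points are the 12 libraries with the higher opposite-strand share and open points the 11 with the lower share. Numbers mark Ct-MetS_169, Ct-Ct_130 and MetS-MetS_110: H19 reaches 4551 CPM and Igf2 53.02 CPM in Ct-MetS_169.

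Per length of exons, which allows the genes to be compared, H19 was far above Igf2. H19 averaged 150 CPM per kilobase in MetS-MetS, 561.1 in Ct-MetS, 184.3 in MetS-Ct and 110.5 in Ct-Ct, and Igf2 averaged 1.116, 2.816, 1.114 and 1.5 CPM per kilobase in the same order of groups. Within a library the per-length level of H19 was 39.5 to 441.2 times that of Igf2. Over all 23 livers H19 spanned a 76.9-fold range and Igf2 a 23.2-fold range. Once group means were removed, the SD of H19 was 1.09 on the log2 CPM scale and that of Igf2 was 0.923, against 0.232 for the median gene, which placed H19 at rank 103 and Igf2 at rank 206 of 14466 genes. Both therefore belong to the most variable genes among animals of the same treatment.

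Against Ct-Ct, H19 in Ct-MetS had the largest difference of the pair, and it missed the threshold. Its log2 fold change was 2.34 ± 0.66 (SE), a 5.08-fold difference with a 95% confidence interval of 0.97 to 3.72 on the log2 scale. The adjusted p was 0.0935 by edgeR's quasi-likelihood test with Benjamini-Hochberg adjustment over all genes. By edgeR 0 of the 2 genes was called, against 0.954% of all genes tested, while DESeq2 called H19 (log2 fold change 2.35, adjusted p = 0.0135) and 2.94% of all genes. Without Ct-Ct_130 the edgeR value was 3.02 and passed (adjusted p = 0.0389, with 1.07% of genes called), and without Ct-MetS_169 it was 1.46. The call thus turned on the method and on single livers, while the sign was the same under every alternative run. With the opposite-strand set as a term, H19 differed by 2.24 ± 0.63 (edgeR adjusted p = 0.0917), where 1.19% of genes were called. In the 12 libraries with the higher opposite-strand share alone, H19 differed by 2.83 ± 0.81 (7.12-fold, 4 against 5 livers, edgeR adjusted p = 0.158), and 0.422% of genes were called there.

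Igf2 in Ct-MetS was 1.88-fold the Ct-Ct level (log2 fold change 0.91 ± 0.59, interval −0.33 to 2.14, edgeR adjusted p = 0.541). The value turned on the highest liver of each group: it was 0.03 on the log2 scale without Ct-MetS_169 and 1.69 without Ct-Ct_130. With the opposite-strand set as a term it was 0.97 ± 0.60 (edgeR adjusted p = 0.467).

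In MetS-MetS against Ct-Ct, where 5.78% of all genes passed, neither H19 nor Igf2 did. H19 differed by 0.44 ± 0.66 (interval −0.93 to 1.81, edgeR adjusted p = 0.732) and Igf2 by −0.45 ± 0.64 (interval −1.78 to 0.88, adjusted p = 0.716). The H19 value was 0.04 without MetS-MetS_157 and 1.12 without Ct-Ct_130. The sign of the Igf2 difference depended on the libraries: it was −1.08 without MetS-MetS_110, 0.33 without Ct-Ct_130, and 0.11 ± 0.81 with the opposite-strand set as a term in the model. H19 with that term was at 1.15 ± 0.74 (edgeR adjusted p = 0.553), and 0.0415% of all genes were called.

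Exposure before birth alone gave no call for either gene. In MetS-Ct against Ct-Ct, H19 differed by 0.74 ± 0.63 on the log2 scale (interval −0.58 to 2.06, edgeR adjusted p = 0.879) and Igf2 by −0.43 ± 0.60 (interval −1.68 to 0.81, adjusted p = 0.927). No gene in the table passed edgeR there (0%), though 854 had an unadjusted p under 0.05 and DESeq2 called 14. Igf2 stood at 0.35 when Ct-Ct_130 was left out. In the 12 libraries of the higher share, H19 was at 1.30 ± 0.84 and Igf2 at −0.63 ± 0.82 (3 against 5 livers, edgeR adjusted p = 1 for each), with 0% of genes called.

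The groups that met MetS at 1 or both times were also set against each other. H19 was at a 3.74-fold lower fitted level in MetS-MetS than in Ct-MetS (log2 fold change −1.90 ± 0.70, edgeR adjusted p = 0.228), and Igf2 at a 2.56-fold lower one (−1.36 ± 0.65, adjusted p = 0.316). In MetS-Ct against Ct-MetS the values were −1.61 ± 0.65 for H19 (adjusted p = 0.306) and −1.34 ± 0.60 for Igf2 (adjusted p = 0.356). None of these passed, in comparisons in which edgeR called 0% and 0.076% of genes. For MetS-MetS against Ct-MetS that is 0 genes by edgeR, 2255 with an unadjusted p under 0.05 and 73 by DESeq2. Without Ct-MetS_169 the 4 differences shrank to −1.03, −0.49, −0.72 and −0.46, in the order given. In MetS-MetS against MetS-Ct both genes were near equal, at −0.30 ± 0.66 for H19 (adjusted p = 0.879) and −0.02 ± 0.64 for Igf2 (adjusted p = 0.995), with 0.415% of genes called, and intervals of −1.68 to 1.08 and −1.35 to 1.32. With the opposite-strand set as a term both signs turned, to 0.31 ± 0.70 for H19 (edgeR adjusted p = 0.936) and 0.26 ± 0.68 for Igf2 (0.944), with 0.0346% of genes called. In MetS-MetS against Ct-MetS that term gave −1.09 ± 0.76 for H19 (edgeR adjusted p = 0.921) and −0.86 ± 0.76 for Igf2 (0.923), with no gene called (0%) and 741 at an unadjusted p under 0.05. The same term gave −1.396 ± 0.63 for H19 and −1.12 ± 0.64 for Igf2 in MetS-Ct against Ct-MetS (edgeR adjusted p = 0.379 and 0.5), where it left 0.0899% of genes called.

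Averaged over both prenatal states, nursing by a MetS dam went with a 2.03-fold difference in H19 that missed the threshold (log2 fold change 1.02 ± 0.46, edgeR adjusted p = 0.201) and with 0.45 ± 0.44 for Igf2 (adjusted p = 0.597), where 4.22% of genes passed. With the opposite-strand set as a term they were 1.27 ± 0.46 and 0.62 ± 0.46 (edgeR adjusted p = 0.139 and 0.517, with 2.31% of genes called). Without Ct-MetS_169 the 2 values were 0.58 for H19 and −0.0012 for Igf2. Averaged over both nursing states, prenatal exposure gave −0.58 ± 0.46 for H19 (adjusted p = 0.530) and −0.90 ± 0.44 for Igf2 (edgeR adjusted p = 0.315), with 0.00691% of genes called. Igf2 was lower with prenatal exposure in the fit, yet the value was −0.46 without Ct-MetS_169. With the opposite-strand set as a term the values were −0.12 ± 0.50 for H19 (edgeR adjusted p = 0.975) and −0.50 ± 0.56 for Igf2 (0.898). No gene was called then (0%), and 868 had an unadjusted p under 0.05. The interaction, which asks whether the nursing difference depends on the prenatal state, was −2.64 ± 0.94 for H19 (edgeR adjusted p = 0.892) and −0.92 ± 0.87 for Igf2 (adjusted p = 0.914). Without Ct-MetS_169 these were −1.77 for H19 and −0.05 for Igf2, without Ct-Ct_130 −3.32 and −1.71, and with the opposite-strand set as a term −1.93 ± 0.95 and −0.71 ± 0.89 (edgeR adjusted p = 0.995 each). No gene passed the interaction test by edgeR (0%), against 787 at an unadjusted p under 0.05 and 4 by DESeq2.

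**Figure D2:**
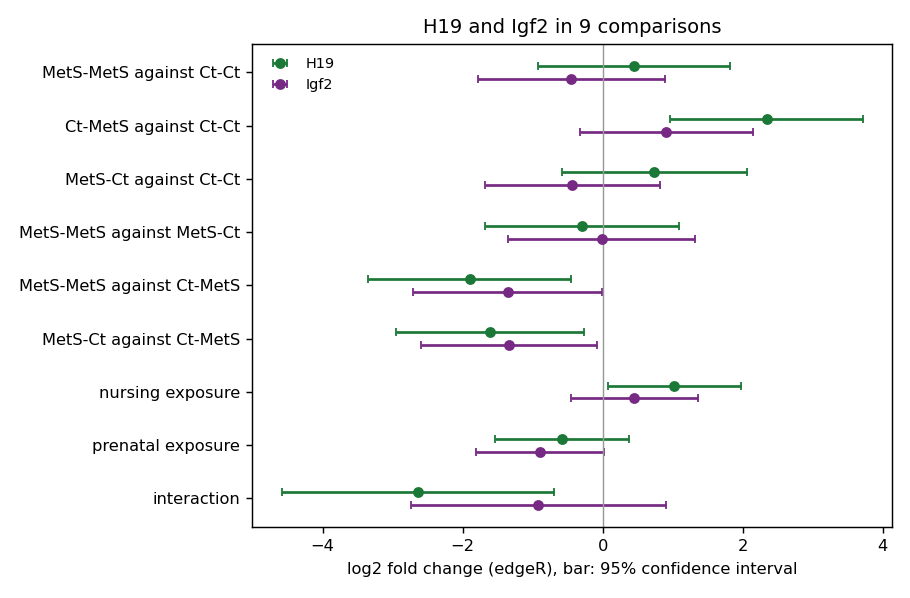
Fitted log2 fold changes of H19 (green) and Igf2 (purple) in the 9 comparisons, with bars for the 95% confidence interval; positive values are higher in the group or exposure named first. The H19 interval lies above 0 in Ct-MetS against Ct-Ct (0.97 to 3.72) and for nursing exposure. It lies below 0 in both comparisons against Ct-MetS and for the interaction. The Igf2 interval also lies below 0 in both comparisons against Ct-MetS (−2.705 to −0.0114 for MetS-MetS, −2.5954 to −0.0895 for MetS-Ct). Neither gene passed edgeR in any comparison once p-values were adjusted.

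Beyond H19 in Ct-MetS against Ct-Ct, DESeq2 called neither gene either. The share of all genes that DESeq2 called was 9.3% in MetS-MetS against Ct-Ct, 0.0968% in MetS-Ct against Ct-Ct, 0.94% in MetS-MetS against MetS-Ct, 0.505% in MetS-MetS against Ct-MetS and 0.671% in MetS-Ct against Ct-MetS. It was 7.18% for nursing exposure, 1.14% for prenatal exposure and 0.0277% for the interaction. The H19 difference nearest to a DESeq2 call among these was MetS-MetS against Ct-MetS, with −1.91 (adjusted p = 0.0613 by DESeq2).

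The order of the groups was thus Ct-MetS, MetS-Ct, MetS-MetS and Ct-Ct for median H19, and Ct-MetS, MetS-Ct, Ct-Ct and MetS-MetS for median Igf2. No neighbours in either order passed the edgeR test once p-values were adjusted over all genes. For MetS-Ct against Ct-MetS, neighbours in both orders, the unadjusted edgeR p was 0.0214 for H19 and 0.0369 for Igf2.

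The ratio of H19 to Igf2 within a library needs no scaling between libraries. By the ranges of single livers, it set Ct-Ct apart from MetS-Ct more clearly than either level did. The H19 level and the Igf2 level each set Ct-Ct apart from Ct-MetS as clearly as the ratio did. The MetS-MetS range of the ratio reached into that of Ct-Ct. The log2 ratio of counts was 6.75, 6.21, 4.27, 6.33 and 6.77 in MetS-MetS, where 4.27 belongs to MetS-MetS_110. It ran from 5.475 through a median of 6.27 to 7.567 in Ct-MetS, from 5.137 through 6.045 to 6.917 in MetS-Ct, and from 4.086 through 4.789 to 6.222 in Ct-Ct. Of the 6 Ct-Ct livers, 5 lay below every Ct-MetS and every MetS-Ct liver, and the exception, Ct-Ct_33 at 6.222, is the single Ct-Ct library with the lower opposite-strand share. Means were 6.06 ± 1.03 in MetS-MetS, 6.31 ± 0.71 in Ct-MetS, 6.02 ± 0.74 in MetS-Ct and 4.91 ± 0.74 in Ct-Ct (SD).

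By exact two-sided permutation tests, the log2 ratio was 1.402 higher in Ct-MetS than in Ct-Ct (2.64-fold, higher than the Ct-Ct mean in 6 of 6 livers, p = 0.0108, adjusted over 7 comparisons 0.0758). It was 1.12 higher in MetS-Ct (2.17-fold, 6 of 6 livers, exact permutation p = 0.0303, adjusted 0.106) and 1.16 higher in MetS-MetS (2.23-fold, 4 of 5 livers, p = 0.0671, adjusted 0.117). None of the 3 passed after adjustment, although an exact test of groups of this size can reach p = 0.00216. The ratio in MetS-MetS differed from that in MetS-Ct by 0.04 (adjusted p = 0.942, exact permutation test) and from that in Ct-MetS by −0.24 (adjusted p = 0.785, exact permutation test). Nursing exposure gave 0.72 (permutation p = 0.0587, adjusted 0.117) and prenatal exposure 0.44 (permutation p = 0.240, adjusted 0.336).

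Leaving out the muscle-bearing library changed the calls on the ratio. Without MetS-MetS_110 the MetS-MetS ratio was 6.51 ± 0.29 (n = 4). It then exceeded that of Ct-Ct by 1.61 (exact permutation test, adjusted p = 0.0444), and the nursing difference was 0.95 (permutation test, adjusted p = 0.0339). The Ct-MetS difference, still 1.402, then had an adjusted p of 0.0379 by the exact permutation test, as adjustment is made over all 7 comparisons together. Leaving out Ct-Ct_33 gave 1.67 for Ct-MetS and 1.38 for MetS-Ct against Ct-Ct, each with an adjusted exact permutation p of 0.0303.

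Within the 12 libraries of the higher opposite-strand share, a split chosen after the data were seen, the exposed groups and the controls did not overlap. The log2 ratio was 5.843 to 7.567 in the 4 Ct-MetS livers and 6.389 to 6.917 in the 3 MetS-Ct livers, against 4.086 to 5.133 in the 5 Ct-Ct livers. Means there were 6.54 ± 0.73 in Ct-MetS, 6.66 ± 0.26 in MetS-Ct and 4.64 ± 0.41 in Ct-Ct (SD). The difference from Ct-Ct was 1.90 in Ct-MetS (3.74-fold, p = 0.00794, adjusted over 4 tests within the sets 0.0318) and 2.01 in MetS-Ct (4.04-fold, p = 0.0179, adjusted 0.0358), both by exact permutation tests and both at the smallest p these numbers of livers allow. In the 11 libraries of the lower share, the ratio was 4.268 to 6.766 in MetS-MetS, 5.475 and 6.197 in Ct-MetS, 5.137 to 5.7 in MetS-Ct and 6.222 in the 1 Ct-Ct liver. There the control liver stood above all of MetS-Ct and Ct-MetS, so the pattern of the 12 libraries did not recur, and 1 control liver permits no test within that set. With differences taken within both sets, the ratio was 1.37 higher in Ct-MetS than in Ct-Ct (exact permutation test, adjusted p = 0.0556) and 1.201 higher in MetS-Ct (adjusted p = 0.0833, exact permutation). Nursing exposure gave 1.098 within the sets (permutation test, adjusted p = 0.0556) and prenatal exposure 0.86 (permutation test, adjusted p = 0.114). MetS-MetS can be set against Ct-Ct_33 alone in that way, which is no test.

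**Figure D3:**
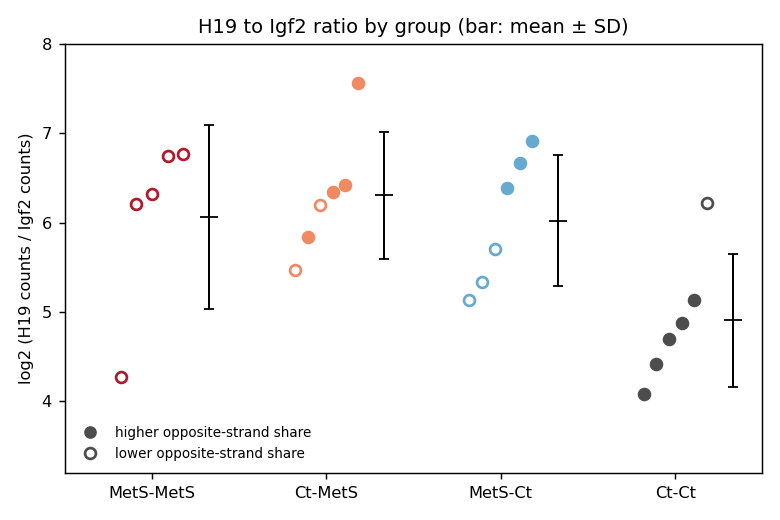
The log2 ratio of H19 to Igf2 counts in each liver by group, with mean ± SD to the right of each group; filled points are libraries with the higher opposite-strand share and open points those with the lower share. Filled Ct-MetS and MetS-Ct points lie at 5.843 or above and filled Ct-Ct points at 5.133 or below, while the open Ct-Ct point is at 6.222 and the lowest MetS-MetS point, MetS-MetS_110, at 4.27.

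The levels behind the ratio were also read by set. Among libraries of the higher share, H19 was 606.1 to 4551 CPM in Ct-MetS and 359.5 to 853.3 CPM in MetS-Ct, against 59.19 to 780.1 CPM in Ct-Ct. Igf2 there was 7.46 to 53.02 CPM in Ct-MetS and 4.29 to 7.063 CPM in MetS-Ct, against 3.486 to 26.57 CPM in Ct-Ct. For H19 alone, Ct-Ct_130 was the sole control of this set above the lowest Ct-MetS liver and above the lowest MetS-Ct liver. Ct-Ct_130 had a high H19 level and a low ratio, 4.88, and its Igf2 was high as well. Among libraries of the lower share, H19 was 377.6 and 589.5 CPM in Ct-MetS and 157.5 to 456.9 CPM in MetS-Ct. It was 245.9 to 726.1 CPM in MetS-MetS and 339.2 CPM in the 1 Ct-Ct liver. That control thus lay below Ct-MetS but inside the MetS-Ct and MetS-MetS ranges. Igf2 in it was 4.543 CPM, against 8.037 and 8.489 CPM in Ct-MetS and 3.028 to 11.34 CPM in MetS-Ct.

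Across livers the 2 genes varied together. With group means removed, log2 CPM of H19 and Igf2 correlated with Pearson r = 0.706 (permutation p = 0.00172) and Spearman rho = 0.654 (permutation p = 0.00156) over 23 libraries. Adjusted over 19 relations computed, these were p = 0.0327 and p = 0.0296 by permutation. Without the 2 livers farthest from the median of H19, Ct-MetS_169 and Ct-Ct_130, r was 0.414 (permutation p = 0.0688). The linear relation was thus weaker, and its p no longer under 0.05, without both of those livers. Leaving out 1 library at a time, r ran from 0.577 without Ct-MetS_169 to 0.797 without MetS-MetS_110. With the means of group and opposite-strand set removed, r was 0.792 (permutation p = 0.00281), and 0.577 (permutation p = 0.0517) without the same 2 livers.

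Within single groups the relation had the same sign but was not firm. In Ct-MetS r was 0.838 (exact permutation p = 0.0944), and −0.114 without Ct-MetS_169. In MetS-Ct it was 0.639 (exact permutation p = 0.161) and in Ct-Ct 0.812 (exact permutation p = 0.0556), which became 0.38 without Ct-Ct_130. The rank correlation was 0.314 in Ct-MetS, 0.771 in MetS-Ct and 0.486 in Ct-Ct, so in Ct-MetS and Ct-Ct the linear value owed much to 1 liver. No correlation is given for MetS-MetS, which has fewer than 6 livers.

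**Figure D4:**
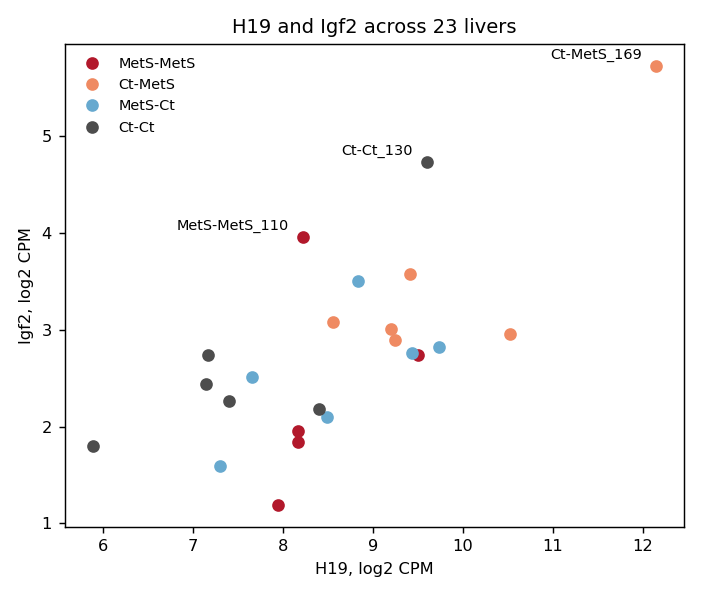
H19 against Igf2 in 23 livers, both in log2 CPM, coloured by group. Ct-MetS_169 and Ct-Ct_130 extend the relation at the upper end, and MetS-MetS_110, with Igf2 at 15.53 CPM, lies above the livers of similar H19; r was 0.706 with group means removed and 0.414 without Ct-MetS_169 and Ct-Ct_130.

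None of the other 18 relations passed. Plagl1 had r = 0.377 with H19 (permutation p = 0.113, adjusted 0.264) and r = 0.342 with Igf2 (permutation p = 0.155, adjusted 0.268). Igf2 had r = 0.492 with Afp, the fetal serum protein alpha-fetoprotein (permutation p = 0.0337, adjusted 0.259). Its r with Gpc3, a fetal heparan sulfate proteoglycan, was 0.491 (permutation p = 0.0409, adjusted 0.259). For H19 these 2 values were 0.392 and 0.411 (adjusted permutation p = 0.264 each). Zhx2, which lowers H19 and Afp after birth in mouse liver, had r = 0.242 with H19 (adjusted permutation p = 0.376), and the library total had r = 0.166 with H19 and −0.284 with Igf2 (adjusted permutation p = 0.513 and 0.352).

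The genes whose levels followed H19 most closely across the 23 livers, out of 11225 ranked by r with group means removed, were Ppp1r18 (0.793), Dock10 (0.781), Ikzf1 (0.767), Tspan15 (0.763), Rap1gap2 (0.759), Plekho2 (0.753), Bmp6 (0.746) and Aldh1b1 (0.743). Igf2 came at place 16. The lowest r values belonged to Vma21 (−0.753), Lhx6 (−0.716), Rmdn2 (−0.712) and Rps4x (−0.708). For Igf2 the highest were Capg (0.768), Rap1gap2 (0.761), Ptgfrn (0.734), Maff (0.730), Acvrl1 (0.723), Cyfip2 (0.711), H19 (0.706) and Capn6 (0.700), and the lowest Zfyve19 (−0.718), Top1mt (−0.681), Pus3 (−0.680) and Rspry1 (−0.669). Rap1gap2 is on both lists; its r without Ct-MetS_169 was 0.642 with H19 and 0.618 with Igf2. Ikzf1 encodes a lymphoid transcription factor, Dock10 a guanine nucleotide exchange factor of blood cells and Capg an actin-capping protein of macrophages. The other listed genes are not described here, and the part of blood cells in these correlations was not tested. These values describe shared variation among the same 23 libraries and carry no p-value.

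Of the IGF system, 19 of 21 listed genes were tested. Igfals, the acid-labile subunit that holds circulating IGF in a stable complex, was the only one called, 1 of 19 in a comparison in which 5.78% of all genes passed. It was 1.80-fold higher in MetS-MetS than in Ct-Ct (log2 fold change 0.85 ± 0.23, edgeR adjusted p = 0.0318), with 147 ± 37.4 CPM in MetS-MetS, 112 ± 42.4 CPM in Ct-MetS, 92.7 ± 15.9 CPM in MetS-Ct and 81.7 ± 6.66 CPM in Ct-Ct. It also passed with nursing exposure (0.56 ± 0.16, edgeR adjusted p = 0.0453), as did 4.22% of all genes. Both calls were lost with the opposite-strand set as a term (edgeR adjusted p = 0.307 and 0.125) and without MetS-MetS_110 (0.0751 and 0.0785). Leaving out each library in turn kept the first call in 16 of 23 fits and the second in 5. Igf1, the postnatal ligand, was at 903.1 ± 50.17 CPM in MetS-MetS, 836.1 ± 220.1 in Ct-MetS, 789.4 ± 178.3 in MetS-Ct and 803.8 ± 148 in Ct-Ct. The receptor Igf2r, which clears IGF2, was at 74.44 ± 15.39, 72.16 ± 14.81, 61.95 ± 5.41 and 64.77 ± 6.241 CPM in those groups. Neither passed in any comparison. Igfbp3, a carrier of IGF, stood at 93.9 ± 13.7 CPM in MetS-Ct and 67.7 ± 12.6 CPM in Ct-Ct, a log2 fold change of 0.47 ± 0.12 that did not pass (edgeR adjusted p = 0.577). The median log2 fold change of the 19 genes was 0.10 in MetS-MetS, 0.06 in Ct-MetS and 0.01 in MetS-Ct, each against Ct-Ct, beside −0.00378, −0.01 and −0.0015 for all genes.

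Of 22 neighbours on distal chromosome 7, 14 were tested, and 2 passed in MetS-MetS against Ct-Ct, beside 5.78% of all genes. They were the fast muscle troponin genes Tnni2 and Tnnt3, and both were highest in MetS-MetS_110, at 46.8 and 104 CPM, against at most 0.642 and 0.857 CPM elsewhere. Neither had enough counts to be tested without MetS-MetS_110, and DESeq2 called 0 of the 14 there. Nctc1, a noncoding gene active in muscle on the far side of H19, had 28 counts in MetS-MetS_110 and 1 in the other 22 libraries together. The remaining neighbours, among them Cdkn1c, the imprinted inhibitor of the cell cycle, gave no call by edgeR in any of the 9 comparisons. Cdkn1c was at 9.024 ± 1.374 CPM in MetS-MetS, 8.666 ± 1.677 in Ct-MetS, 8.621 ± 2.435 in MetS-Ct and 7.43 ± 2.531 in Ct-Ct. Cars, a cysteine tRNA ligase gene, was nearest to a call, with −0.73 ± 0.16 in MetS-Ct against Ct-MetS (edgeR adjusted p = 0.077) and −0.48 ± 0.12 with prenatal exposure (edgeR adjusted p = 0.156), and DESeq2 called it in both. Ins2 and Igf2os, the genes closest to Igf2, had at most 1 and 3 counts in a library.

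Of 23 genes placed with H19 and Igf2 in an imprinted network, 19 were tested and 0 passed by edgeR in any comparison, whereas DESeq2 called Mest with nursing exposure and in Ct-MetS against Ct-Ct, and Ppp1r9a with prenatal exposure and in MetS-MetS against Ct-Ct. At an unadjusted p under 0.05 there were 7 of the 19 with nursing exposure and 4 with prenatal exposure, against 21.2% and 16.3% of all genes. There were 5 in MetS-MetS, 4 in Ct-MetS and 1 in MetS-Ct, each against Ct-Ct, where 24.4%, 13.9% and 5.9% of all genes had such a p. Mest, an imprinted gene of mesoderm, had a log2 fold change of 0.93 ± 0.27 in Ct-MetS against Ct-Ct (edgeR adjusted p = 0.0982) and means of 34.0 ± 9.54 CPM in Ct-MetS and 17.8 ± 6.82 CPM in Ct-Ct. Grb10, an imprinted adaptor that restrains growth signalling, had 0.39 ± 0.13 there (edgeR adjusted p = 0.153). Ppp1r9a, an imprinted gene for an actin-binding protein, had −0.43 ± 0.13 in MetS-MetS against Ct-Ct (edgeR adjusted p = 0.0506). Ppp1r9a and Sgce, neighbours of Peg10, had −0.33 ± 0.09 and −0.22 ± 0.08 with prenatal exposure (edgeR adjusted p = 0.156 and 0.193). The median over the 19 genes was 0.17 in Ct-MetS and 0.12 in MetS-MetS against Ct-Ct, beside −0.01 and −0.00378 for all genes. Dlk1, a paternally expressed fetal gene, was too low to test, at a mean of 0.223 CPM or less in each group.

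Of the fetal liver genes and their repressors, 11 of 15 were tested, and Cd24a, a surface protein of fetal and progenitor cells, was the 1 that passed. It was higher with nursing exposure by 0.70 ± 0.13 (edgeR adjusted p = 0.00601, where 4.22% of all genes passed) and was also called without each of the 23 libraries in turn and with the opposite-strand set as a term (adjusted p = 0.0169). It also passed in MetS-MetS against Ct-Ct (0.77 ± 0.19, edgeR adjusted p = 0.0221) and against MetS-Ct (0.97 ± 0.19, edgeR adjusted p = 0.0328), comparisons with 5.78% and 0.415% of all genes called, and both of these were lost without MetS-MetS_110 (0.0686 and 0.11) and with the opposite-strand set as a term (0.185 and 0.0896). Its means were 9.47 ± 2.53 CPM in MetS-MetS, 7.41 ± 1.53 in Ct-MetS, 4.82 ± 1.25 in MetS-Ct and 5.52 ± 0.726 in Ct-Ct. Cd24a is also a gene of blood cells, and 3 of the 8 erythroid markers passed with nursing exposure as well, beside the same 4.22%; their part in its difference was not tested. Afp was at 8.05 ± 2.76 CPM in MetS-MetS, 12.1 ± 5 in Ct-MetS, 5.79 ± 2.84 in MetS-Ct and 10.1 ± 5.77 in Ct-Ct, and passed nowhere. The repressor Zhx2 was at 15.2 ± 1.63, 13.9 ± 1.4, 17.1 ± 2.41 and 15.1 ± 1.11 CPM in those groups, with no call.

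All 19 factors listed for the control region and enhancers were tested. Ctcf, at 38.7 to 50.2 CPM in all livers, gave no call. Dnmt3b, a methyltransferase that sets DNA methylation, was 2.19-fold lower in MetS-MetS than in Ct-Ct (−1.13 ± 0.29, edgeR adjusted p = 0.0258), 1 of 19 where 5.78% of all genes passed, with 4.9 ± 2.12 CPM in MetS-MetS and 10.8 ± 3.09 CPM in Ct-Ct. That call was lost without MetS-MetS_110 (adjusted p = 0.073 by edgeR) and with the opposite-strand set as a term (0.268). Rad21, a cohesin subunit that meets CTCF at insulators, was higher with nursing exposure by 0.23 ± 0.06 (edgeR adjusted p = 0.0297, beside 4.22% of all genes), at 82 ± 6.2 CPM in MetS-MetS and 84.5 ± 4.48 in Ct-MetS, against 69.6 ± 9.42 in MetS-Ct and 71.9 ± 6.85 in Ct-Ct. It too was lost without MetS-MetS_110 (0.0579) and with that term (0.0913). Foxa2, a liver pioneer factor that binds the shared enhancers, had −0.46 ± 0.14 with nursing exposure (edgeR adjusted p = 0.0568), a difference that DESeq2 called. DESeq2 also called Rad21 and Dnmt3b with nursing exposure, beside 7.18% of all genes. Dnmt3b had −0.57 ± 0.19 there by edgeR and did not pass (adjusted p = 0.0930). In MetS-MetS against Ct-Ct DESeq2 called Dnmt3b too, beside 9.3% of all genes.

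Markers of other cells moved with some of these comparisons. Whole liver was sequenced, so fewer cells of a type and less RNA per cell cannot be told apart. Kupffer cell markers, the macrophages of liver, passed for 5 of 8 genes in MetS-MetS and 5 of 8 in Ct-MetS against Ct-Ct, where 5.78% and 0.954% of all genes passed, and summed to 414 to 696 CPM in MetS-MetS, 480 to 683 in Ct-MetS, 426 to 499 in MetS-Ct and 327 to 425 in Ct-Ct. With the opposite-strand set as a term the 5 MetS-MetS calls were lost (edgeR adjusted p = 0.0782 to 0.381, with 0.0415% of genes called). The 5 Ct-MetS calls were kept with that term (edgeR adjusted p = 0.0117 to 0.0449, with 1.19% of genes called). Leaving out each library in turn kept the Ct-MetS calls in 11 of 23 fits for Clec4f and up to 23 for Cd68. MetS-MetS overlapped Ct-Ct in the Kupffer marker sum and Ct-MetS did not. MetS-Ct cleared Ct-Ct only narrowly, with a lowest sum of 426 CPM against a highest of 425 CPM. In MetS-Ct against Ct-Ct 0 of the 8 markers passed by edgeR, as did 0% of all genes. Stellate cell and fibroblast markers summed to 676 to 1050 CPM in MetS-MetS, 826 to 1080 in Ct-MetS, 670 to 911 in MetS-Ct and 543 to 1100 in Ct-Ct. The highest libraries in that sum were MetS-MetS_110, Ct-MetS_169, MetS-Ct_149 and Ct-Ct_130, of which Ct-MetS_169 and Ct-Ct_130 also had the highest H19 and Igf2 of their groups and MetS-MetS_110 the highest Igf2. Des was at 63.1 CPM in MetS-MetS_110, against a median of 6.59 CPM. Singly, Pdgfrb was lower in MetS-MetS than in Ct-Ct (−0.53 ± 0.14, edgeR adjusted p = 0.0297, beside 5.78% of all genes). Rgs5 was higher with nursing exposure (0.48 ± 0.12, edgeR adjusted p = 0.0283, beside 4.22%). The opposite-strand set as a term removed both calls (edgeR adjusted p = 0.405 and 0.0928). Proliferation markers summed to 273 to 417 CPM in Ct-MetS and 105 to 250 CPM in Ct-Ct, without overlap, though 0 of 10 passed singly by edgeR there, 7 having an unadjusted p under 0.05, as did 13.9% of all genes, and DESeq2 called 2. The part of these cells in the H19 and Igf2 values was not tested.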

How the data were processed

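Polyadenylated RNA of 23 flash-frozen livers was sequenced from directional libraries, per the labels' protocols. FastQC, STAR, HTSeq and DESeq2 were used, per the submitters' processing notes; no source used here gives the build, the annotation or the strand setting of the counting. The table deposited by the authors has 1 column of read counts per liver and 1 line per Ensembl gene. The authors' name for the table calls these counts normalized. They were nevertheless read as raw counts because every library holds each count from 1 to 100 and size factors ran from 0.623 to 1.43. The edgeR and DESeq2 results rest on that reading. Of 49585 identifiers, 49326 matched a symbol in GENCODE M21, and the other 259 held 0.0137% of counts.

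Genes with a mean count of at least 10 were tested in 1 fit over 23 libraries by edgeR's quasi-likelihood test (robust, TMM scaling, R 4.3.3, edgeR 4.0.16) with Benjamini-Hochberg adjustment at 0.05; the fit was tested on simulated data. DESeq2 1.42.0 and limma-voom (limma 3.58.1) were alternatives. Levels are CPM over all genes, and log2 CPM has 0.5 added. The ratio used counts in each library, with exact permutation tests over livers, and 100000 permutations for each averaged exposure and for correlations over 23 livers; correlations within 1 group used all orderings (Python 3.11.15, numpy 2.4.6, scipy 1.17.1, pandas 2.3.3, matplotlib 3.10.9). Symbols, positions and exon lengths came from GENCODE M21, and sequences from RefSeq.

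The members and gene lists were chosen with earlier results of these data known. Named genes are both members, every called list gene, the 4 of each list with the smallest p for an exposure or the interaction, and the 8 highest and 4 lowest correlations. The comparison of MetS-Ct with Ct-MetS, all values by opposite-strand share, the genes Igf1, Igf2r, Cdkn1c, Zhx2, Plagl1, Gpc3 and Ctcf, and the livers left out by name were chosen after values were seen. Library pairs of 1 group differed far beyond sampling noise, with a chi-square per gene of 17.8 or more.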

Additional observations from a re-analysis of the deposited data

Results flagged for a closer look

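In 13 of 56 groups of values examined, the highest or lowest liver stood apart from the rest of its group by a wide gap. Chance gives such a gap in about 1 in 20 groups if values follow a normal distribution. CPM and marker sums were taken on the linear scale, where that was not tested. The 13 of 56 therefore cannot be set against that rate. H19 stood apart in MetS-MetS_157, at 726 CPM against 246 to 299 CPM in the other 4 livers of MetS-MetS. H19 also stood apart in Ct-MetS_169, at 4550 CPM against 378 to 1470 CPM in the rest of Ct-MetS, and Igf2 in the same liver was at 53 CPM against 7.46 to 11.9 CPM. Igf2 was at 26.6 CPM in Ct-Ct_130, against 3.49 to 6.7 CPM in the rest of Ct-Ct. The log2 ratio of H19 to Igf2 was 4.27 in MetS-MetS_110, against 6.21 to 6.77 in the other MetS-MetS livers.

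The remaining values that stood apart were summed marker levels. Skeletal muscle markers were at 1020 CPM in MetS-MetS_110 against 0.939 to 1.88 CPM in its group, at 6.32 CPM in Ct-MetS_24 against 0.542 to 1.54 CPM, at 1.39 CPM in MetS-Ct_149 against 0.669 to 0.928 CPM, and at 7.37 CPM in Ct-Ct_10 against 0.741 to 1.07 CPM. Adipose markers were at 9.07 CPM in Ct-MetS_169 against 0.548 to 0.99 CPM in its group, and at 4.34 CPM in Ct-Ct_10 against 0.383 to 1.02 CPM. Pancreas markers were at 23.4 CPM in MetS-Ct_149 against 3.62 to 9.75 CPM. Proliferation markers were at 144 CPM in MetS-MetS_157 against 250 to 288 CPM. The liver with the highest H19 and Igf2 thus also held the highest adipose sum of Ct-MetS, while the highest sum of all livers, 12.4 CPM, was in MetS-MetS_110; the part of adipose RNA in their H19 and Igf2 values was not tested.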

How the results depend on the processing

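Other size factors, no filter on low counts, limma-voom and a fit of only the compared groups kept the side of the threshold and the sign of H19 and Igf2 in all comparisons run; the fit of compared groups exists for pairs of groups only. DESeq2 raised H19 in Ct-MetS against Ct-Ct to a call (2.35, adjusted p = 0.0135) and gave no adjusted p for Igf2 in MetS-Ct against Ct-Ct and MetS-MetS against Ct-MetS. With the opposite-strand set as a term, Igf2 in MetS-MetS against Ct-Ct turned to 0.11, and in MetS-MetS against MetS-Ct H19 turned to 0.31 and Igf2 to 0.26. In the lower set, the one that holds MetS-MetS, the ratio was −0.16 against Ct-Ct, a value that rests on 1 control liver, Ct-Ct_33, and 0.23 against 2 livers of Ct-MetS. Over all MetS-MetS and Ct-MetS livers the difference of medians was 0.056. The cause was not tested.

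Leaving out each library in turn, H19 in Ct-MetS against Ct-Ct ran from 1.46 to 3.02. Igf2 ran from −1.08 to 0.33 in MetS-MetS and from −0.67 to 0.35 in MetS-Ct against Ct-Ct, from −0.64 to 0.22 in MetS-MetS against MetS-Ct, and from −0.0012 to 0.84 with nursing exposure. The log2 ratio ran from 0.98 to 1.61 in MetS-MetS, 1.15 to 1.67 in Ct-MetS and 0.94 to 1.38 in MetS-Ct against Ct-Ct, from −0.14 to 0.49 in MetS-MetS against MetS-Ct, from −0.42 to 0.20 against Ct-MetS, and from 0.60 to 0.95 with nursing exposure.

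Counts of called genes moved more than the pair did. For MetS-MetS against Ct-Ct edgeR called 836 genes, DESeq2 1346, limma-voom 527, edgeR without a filter 457, and edgeR with the set as a term 6; leaving out libraries gave 219 to 1354. For Ct-MetS against Ct-Ct these were 138 by edgeR, 425 by DESeq2, 47 with only these groups, 62 in the higher set, and 12 to 246 by leaving out libraries. For MetS-MetS against MetS-Ct they were 60, 136 by DESeq2, 16 by limma-voom, 20 without a filter, 23 with only these groups and 5 with the set. For MetS-Ct against Ct-MetS they were 11, 97 by DESeq2, and 0 with only these groups or in the higher set. For nursing exposure they were 611, 1038 by DESeq2, 367 without a filter and 334 with the set. For prenatal exposure they were 1, 165 by DESeq2 and 0 with the set. No paired analysis was possible because animal numbers are not shared between groups. Igf2, with as few as 51 counts in a library, carried more counting error than H19, and both genes are limited by the spread between livers.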
